A study of Mus musculus with 4 samples.

Results

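The nuclear genes for the mitochondrial respiratory chain and the ATP synthase were followed in mouse intestinal organoids before and after induced recombination of Apc. Members were the genes whose symbol starts with Nduf, Uqcr, Atp5 or Cox4 to Cox8, plus Sdha to Sdhd, taken from probe sets that name exactly 1 gene. This gave 179 probe sets for 90 of the 18193 genes on the arrays, and each gene was read from its brightest probe set. By symbol, 36 genes belonged to complex I, 4 to complex II, 8 to complex III, 17 to complex IV and 17 to complex V, and 8 were Ndufaf assembly factors of complex I. Another 10 probe sets name a member together with a second gene and were left out. Ndufs6, Ndufa11 and Cox7b were not analysed here.

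The respiratory chain passes electrons from NADH (complex I) and succinate (complex II) through complex III to oxygen at complex IV, and complexes I, III and IV pump protons across the inner mitochondrial membrane. ATP synthase, complex V, lets the protons back and makes ATP. Most subunits are encoded in the nucleus and a small core of them in mitochondrial DNA. In the intestine, mitochondria are known to supply both the transport work of mature enterocytes and the metabolism of the crypt.

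Organoids are epithelial cultures grown in Matrigel, and those used here carried floxed Apc alleles (Apc fl/fl) in every group. The Apc protein is part of the machinery that keeps beta-catenin low, and so restrains Wnt signalling. The 4 groups were untreated organoids at day 4, organoids given 4-hydroxytamoxifen (4OHT) for 24 h and collected at day 4, untreated organoids at day 6, and 4OHT-treated organoids at day 6, and the labels call the 4OHT groups Apc-deficient. Each group was 1 array made from 100 ng of total RNA, which means that there were no replicates and that precision is limited by how few arrays there are. The driver of the recombinase, the age of the mice and the number of cultures behind each array are not given in the sources used here. Drug-treated organoids with intact Apc alleles were not analysed here. Effects of the drug and of Apc recombination therefore cannot be told apart.

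The values are probe-set intensities, and differences are on the scale of log2(intensity + 16), where changes of dim genes come out too small. Folds given with an intensity are ratios of the intensities themselves, and the counts past 1.5-fold use the log2(intensity + 16) scale. The median intensity was 22.0 and 21.9 on the untreated and 4OHT arrays of day 4 and 19.3 and 19.5 on those of day 6, and the scaling between days is unknown. All 7 epithelial markers (Epcam, Cdh1, Vil1, Cdx2, Krt8, Krt18 and Krt19) passed the level filter, an intensity of at least 20.9 on 1 of the 4 arrays. So did 13192 of the 18193 genes. The summed intensity of the 7 epithelial markers was 14740 to 26373. The summed intensity of 8 fibroblast and muscle markers was 124 to 216, that of 3 endothelial markers 39.5 to 81.1, and that of 3 immune markers 42.6 to 87.4. Of the 90 members, 88 passed the filter and were tested. Ndufb4 and the testis isoform gene Cox7b2 lay below it on every array. Each was read by 1 probe set, so that little RNA and a probe set that misses the RNA cannot be told apart.

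Setting 4OHT-treated against untreated organoids addressed what changed after induced recombination of Apc. A single member, Cox7a1, fell, and none rose. At day 6 most of the other members were slightly lower on the 4OHT array, and at day 4 they lay on both sides of 0. The test was limma over the 4 arrays, with additive terms for 4OHT and day and Benjamini-Hochberg adjustment over 13192 genes, of which 0.970% rose and 2.25% fell. Its error comes from how far the 4OHT effect differed from one day to the other, and not from replicate cultures. With 1 residual degree of freedom per gene against 15.2 of the prior, that error is mostly pooled over all genes. An SE therefore says little about a gene's own spread. It was 0.208 for Uqcrh, with like differences on the days, and 0.231 for Ndufaf6, with opposite ones. At an unadjusted p under 0.05 there were 16 members, all lower with 4OHT, where 13.9% of all genes were at that level in either direction and 7.47% were lower. In bulk samples such as these, fewer cells of a type and less RNA per cell cannot be told apart.

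**Figure D1:**
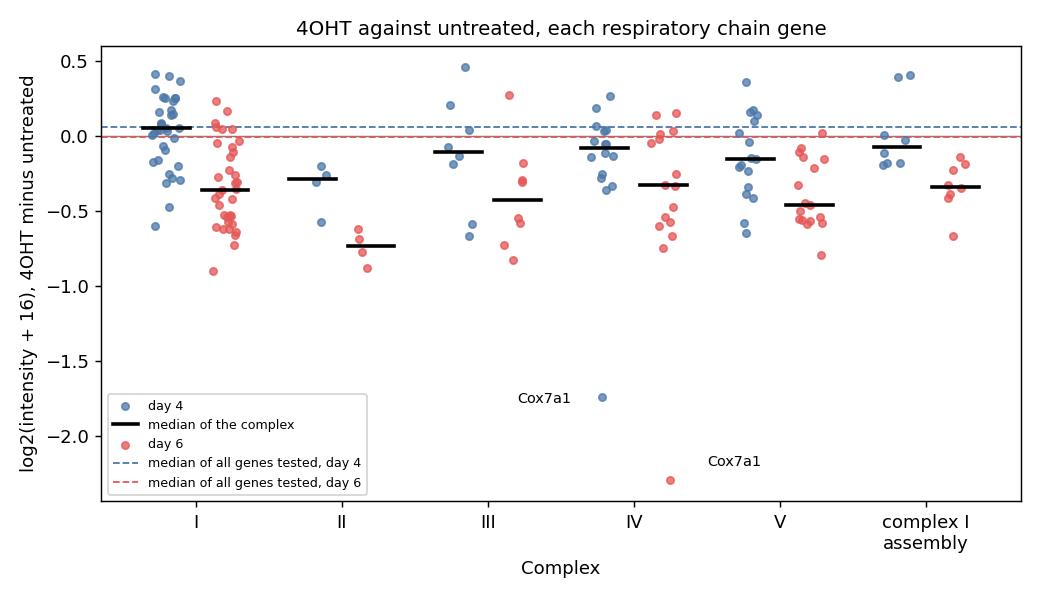
Each point is 1 of the 88 members tested, placed by complex, with the log2(intensity + 16) difference of the 4OHT minus the untreated array at day 4 (blue) and day 6 (red); black bars are medians of the complex and dashed lines the medians of all 13192 genes. The points of day 6 lie mostly below 0 (76 of 88), those of day 4 lie on both sides of 0 (48 of 88 below), and Cox7a1 lies apart at -1.74 and -2.29.

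Cox7a1 encodes the heart and skeletal muscle isoform of a small structural subunit of cytochrome c oxidase, the enzyme of complex IV. Its intensity was 113 on the untreated and 22.8 on the 4OHT array of day 4, and 259 and 40.1 on those of day 6. Both 4OHT arrays therefore lay below both untreated arrays. The signal was 4.97-fold lower at day 4 and 6.47-fold lower at day 6, and the gene fell by 2.02 ± 0.22 (SE, limma, adjusted p = 8.66e-05), the 13th lowest mean difference of all genes tested. It was read by 1 probe set, so that no other probe set could check it. A pseudocount of 64, no level filter and no day term each ended the call (adjusted p = 0.172, 0.186 and 0.99999), and under each of these settings no member passed. With a pseudocount of 64 or no level filter no gene of all those tested passed either.

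Its close relative Cox7a2, the isoform made in most tissues, did not pass the test. Cox7a2 had intensities of 1308 and 1185 at day 4 and of 3039 and 2554 at day 6, untreated and 4OHT in turn. The 4OHT array was the lower on both days, by 1.10-fold and 1.19-fold (mean difference -0.20 ± 0.21, SE, limma, adjusted p = 0.774). Its second probe set differed by -0.25 and -0.55. Cox7a2l, a relative that helps to join complexes III and IV into supercomplexes, had a difference of 0.039 (day 4) and -0.47 (day 6). Its other probe sets differed by -0.19 and -0.13 at day 4 and by -0.65 and -0.51 at day 6. Of the 8 fibroblast and muscle markers 5 passed the level filter and none passed the test. With 4OHT 3 of these 5 were higher on both days and 2 lower on both, the medians being 0.043 at day 4 and 0.024 at day 6. Des, a muscle filament gene, had intensities of 55.6 and 41.0 at day 4 and of 29.9 and 25.7 at day 6, untreated and 4OHT in turn. Acta2, of the same list, went the other way, with 56.7 and 59.4 at day 4 and 34.2 and 40.4 at day 6. Myh11, smooth muscle myosin, was below the filter on every array. The part of muscle cells in the values of Cox7a1 was not tested.

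The promoters of Cox7a1 and Cox7a2 are shown because one isoform gene fell and the other did not pass, beside those of Sdhd and Uqcrfs1, 2 members with large differences downward on both days. The sequences are RefSeq's (GRCm38.p6), the 250 bases before the annotated start, 5′ to 3′ on the gene's strand. Capitals mark a match to the binding motif of NRF1 (GCGCA, any base, then GCGC), a factor known to control many respiratory chain genes. In the order printed, the windows are chr7:30183921-30184170 (plus strand), chr9:79759854-79760103 (minus strand), chr9:50603850-50604099 (minus strand) and chr13:30545317-30545566 (minus strand).
Cox7a1: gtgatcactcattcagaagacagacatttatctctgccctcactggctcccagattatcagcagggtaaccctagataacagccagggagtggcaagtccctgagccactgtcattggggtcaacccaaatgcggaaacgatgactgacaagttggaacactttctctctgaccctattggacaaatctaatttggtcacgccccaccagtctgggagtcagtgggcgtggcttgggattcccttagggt
Cox7a2: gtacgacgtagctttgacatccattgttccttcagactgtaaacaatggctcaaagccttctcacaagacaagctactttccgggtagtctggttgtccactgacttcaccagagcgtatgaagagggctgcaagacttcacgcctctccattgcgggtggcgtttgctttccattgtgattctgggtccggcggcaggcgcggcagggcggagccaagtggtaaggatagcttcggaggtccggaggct
Sdhd: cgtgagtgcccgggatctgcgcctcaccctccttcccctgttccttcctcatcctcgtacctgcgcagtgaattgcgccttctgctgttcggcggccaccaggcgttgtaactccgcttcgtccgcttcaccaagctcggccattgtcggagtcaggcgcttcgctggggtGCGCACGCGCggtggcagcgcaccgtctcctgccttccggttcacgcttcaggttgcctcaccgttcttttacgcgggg
Uqcrfs1: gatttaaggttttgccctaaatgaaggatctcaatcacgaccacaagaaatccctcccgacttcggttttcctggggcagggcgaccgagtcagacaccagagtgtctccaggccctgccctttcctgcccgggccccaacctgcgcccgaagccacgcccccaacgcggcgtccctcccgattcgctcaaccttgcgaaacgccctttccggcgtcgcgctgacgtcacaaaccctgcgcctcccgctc

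The window of Cox7a1 held 4 CG dinucleotides, that of Cox7a2 14, that of Sdhd 27 and that of Uqcrfs1 23, where the median over 74 members with a window was 15, as it was over 10603 genes tested. Only Cox8b, another muscle isoform gene, had fewer among the members than Cox7a1 (1), and Ndufc2 had as many. The NRF1 motif was searched on both strands and was in the windows of 12 of the 74 members, against 8.51% of the genes tested with a window and 4.23% of all 27025 genes with one. The 12 were Atp5c1, Atp5g2, Atp5h, Atp5k, Cox6a1, Ndufa5, Ndufa8, Ndufaf4, Ndufb4, Ndufs5, Sdha and Sdhd. Their median difference with 4OHT, over the 11 tested, was -0.039 at day 4 and -0.56 at day 6, and that of the 61 tested members without the motif -0.066 and -0.38. Matches to CCGGAAGT, the motif of the ETS factor GABPA, were in 3 members' windows (6.15% of genes tested), to AAGATGGC (YY1) in 1 (2.35%), to CAAGGTCA (oestrogen-related receptors) in 3 (1.33%), to the MEF2 motif (CTA, 4 bases of any kind, TAG) in 1 (3.40%) and to ATCAAAG (TCF) in 1 (3.02%), and none of these 5 was in the window of Cox7a1, Cox7a2, Sdhd or Uqcrfs1. Both strands were searched for these too, and no motif contains another. A match is a run of letters and was not tested as a binding site.

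Complex II, succinate dehydrogenase, had the lowest medians of the 5 complexes on both days, -0.28 at day 4 and -0.73 at day 6, and all 4 of its genes were lower with 4OHT on both days. With the mean of all probe sets its day 6 median was -0.44 and that of complex III was lower, -0.53. It is the only complex that also works in the citric acid cycle and has no subunit from mitochondrial DNA. Sdhd, a membrane anchor, had intensities of 470 and 311 at day 4 and of 1869 and 1086 at day 6, untreated and 4OHT in turn. It was 1.51-fold and 1.72-fold lower, with a mean difference of -0.67 ± 0.21 (SE) that did not pass (limma, adjusted p = 0.107), and its second probe set differed by -0.48 and -0.26. Sdhb, the iron-sulfur subunit, had intensities of 427 and 353 at day 4 and of 1338 and 722 at day 6. The 4OHT array was the lower on both days and the difference was the larger at day 6, -0.26 against -0.88. Sdha, the flavoprotein that oxidizes succinate, differed by -0.30 and -0.62, and Sdhc, the other anchor, by -0.20 and -0.69. Of the 3 Sdha probe sets past the filter, the other 2 were higher with 4OHT at day 4, by 0.088 and 0.39, and the second probe set of Sdhc differed by -0.028 at day 6.

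In complex III, 5 of 8 genes were lower on both days, 1 was higher on both, and none passed the test; its medians were -0.10 at day 4 and -0.43 at day 6. Uqcrfs1 encodes the Rieske iron-sulfur protein, which takes electrons from ubiquinol. Its intensity was 342 and 210 at day 4 and 1008 and 561 at day 6, untreated and 4OHT in turn. That was 1.63-fold and 1.80-fold lower with 4OHT, and its mean difference of -0.75 ± 0.21 (SE, limma, adjusted p = 0.069) was the largest after Cox7a1 without passing. Uqcrh, the hinge protein, had intensities of 1644 and 1093 at day 4 and of 1782 and 1187 at day 6. It was lower by the same size on both days (-0.58 and -0.58), where its second probe set differed by -0.21 and -0.67. Uqcrc1, a core protein, differed little at day 4 (-0.19) and more at day 6 (-0.72). Uqcr10, a small accessory subunit, was the exception, with differences of 0.21 and 0.27, but its other 2 probe sets differed at day 6 by -0.12 and -0.17.

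Among the 35 complex I genes tested, 9 were lower and 3 higher on both days, and 20 were higher at day 4 and lower at day 6. The medians were 0.053 at day 4 and -0.36 at day 6. Ndufa6, an accessory subunit, had intensities of 595 and 387 at day 4 and of 1290 and 836 at day 6, untreated and 4OHT in turn. It was 1.54-fold lower on each day (mean difference -0.61 ± 0.21, SE, limma, adjusted p = 0.157). Ndufab1, the mitochondrial acyl carrier protein, differed by -0.47 and -0.66. Its further probe sets past the level filter differed by -0.074, 0.020 and 0.28 at day 4 and by -0.45, 0.17 and -0.049 at day 6. Ndufa4, named for complex I but known as a subunit of complex IV, differed by -0.31 and -0.53. Ndufb7 (0.37 and 0.17), Ndufv1, the subunit that binds NADH (0.17 and 0.084), and Ndufa13 (0.40 and 0.044) were the 3 that were higher on both days. The second probe set of Ndufb7 differed by -0.31 at day 6, and the further probe sets of Ndufv1 differed there by 0.097 and -0.26. The 6 core subunits measured (Ndufv1, Ndufv2, Ndufs1, Ndufs3, Ndufs7 and Ndufs8) had a median of 0.12 at day 4 and -0.17 at day 6, and the 29 accessory genes tested 0.043 and -0.38. The core genes ran at day 6 from -0.58 (Ndufs1) to 0.23 (Ndufs7), but the second probe set of Ndufs7 differed there by -0.42. Further probe sets of Ndufv2 differed at day 6 by -0.10 and -0.56, and those of Ndufs8 ran from -0.70 to 0.22. The medians of the core genes therefore depend on the probe set chosen.

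For the 16 complex IV genes tested the median difference was -0.081 (day 4) and -0.33 (day 6), the latter the closest to 0 of the 5 complexes. Without the tissue-restricted isoforms the medians were -0.0071 and -0.51, over 10 genes that were all lower at day 6. Cox5a differed by -0.36 and -0.60 and Cox8a by -0.33 and -0.67, both being structural subunits around the catalytic core. Cox6a1 had intensities of 3545 and 3420 at day 4 and of 9801 and 5842 at day 6, so that its difference lay at day 6 (1.68-fold lower) and was small at day 4 (1.04-fold). Cox4i1, the largest nuclear subunit, was 1.20-fold higher at day 4 and 1.26-fold lower at day 6, and Cox6b1 differed by 0.037 and -0.32. The second probe set of Cox6b1 differed by -0.23 and -0.46, and the dimmest of Cox8a (22.5 to 32.6) by -0.14 and 0.23. Among the isoforms known from heart, muscle, lung or testis, Cox4i2 (11.4 to 24.9), Cox6b2 (9.05 to 20.9) and Cox8b (14.6 to 23.9) lay near or below the level filter, and Cox6a2 (39.0 to 99.9), Cox8c (61.7 to 160) and Ndufa4l2 (27.5 to 71.3), a relative of Ndufa4 known to be induced by hypoxia, lay above it on all arrays. None of these 6 passed the test, their differences with 4OHT running from -0.28 to 0.15. The second probe sets of Cox8c (16.2 to 26.6) and Cox6a2 (4.81 to 9.40) lay near or below the level filter.

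For ATP synthase, 10 of 17 genes were lower on both days and none was higher on both, the day 4 and day 6 medians being -0.15 and -0.46. Atp5b, the catalytic beta subunit, had intensities of 1115 and 707 at day 4 and of 4138 and 2761 at day 6, untreated and 4OHT in turn. The 4OHT array was the lower on both days, with differences of -0.65 and -0.58 (mean -0.61 ± 0.21, SE, limma, adjusted p = 0.151). Atp5c1, the gamma subunit that forms the rotating shaft, differed by -0.58 and -0.56, and Atp5pb, of the peripheral stalk, by -0.38 and -0.54. The second, dim probe set of Atp5c1 (9.31 to 43.2) differed by 0.50 and -0.017. The alpha subunit gene Atp5a1, the partner of Atp5b in the catalytic head, differed by 0.16 and -0.50. Its further probe sets were lower on both days, by -0.25 and -0.69 in one and by -0.18 and -0.23 in the other. The 3 genes for the same c subunit of the rotor had different values on the days, Atp5g1 differing by 0.099 and -0.44, Atp5g2 by -0.41 and -0.079, and Atp5g3 by -0.20 and -0.56. Atpif1, the inhibitor of the enzyme and no member by its symbol here, differed by -0.25 and -0.48. The 8 Ndufaf assembly factors of complex I were all lower at day 6 (median -0.34), with Ndufaf2, Ndufaf3 and Ndufaf7 between -0.35 and -0.18 on both days. Ndufaf6 had a difference of 0.40 (day 4) and -0.41 (day 6).

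**Figure D2:**
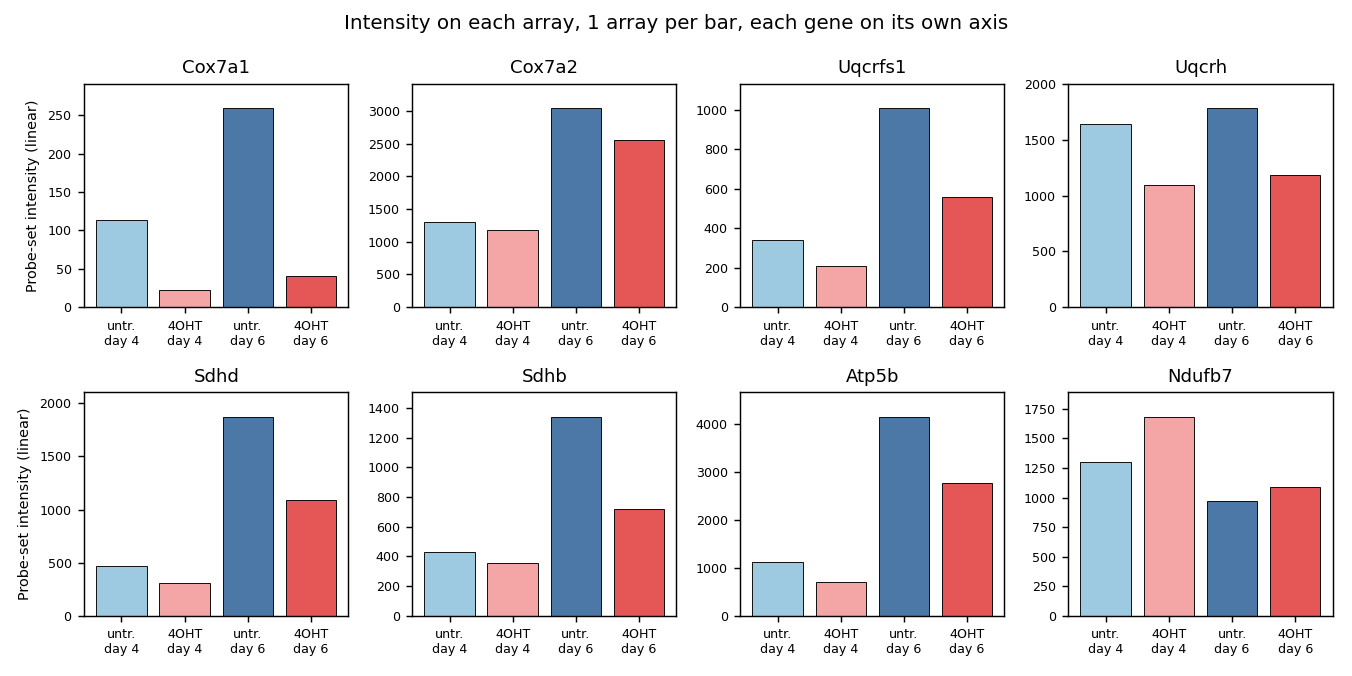
Bars give the probe-set intensity (linear, from 0) of 8 members on each of the 4 arrays, each gene on its own axis, with light bars for day 4 and dark bars for day 6, blue for untreated and red for 4OHT. The 4OHT bar is the lower of its day in 7 genes, most of all in Cox7a1 (113 against 22.8 and 259 against 40.1), while Ndufb7 has the higher bar with 4OHT on both days.

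Counted by day over all complexes, 4 members were at least 1.5-fold lower with 4OHT at day 4 and none was higher, where 5.62% and 7.87% of all genes were. The 4 were Cox7a1, Uqcrfs1, Atp5b and Ndufa6, and 3 of them, all but Atp5b, were past 1.5-fold on both days (2.41% of all genes). At day 6, 20 of 88 members were at least 1.5-fold lower and none higher, where 8.76% and 4.74% of all genes were. They were 7 of complex I, 4 of complex II, 2 of complex III, 4 of complex IV, 2 of complex V and 1 assembly factor, the largest after Cox7a1 being Ndufa9, an accessory subunit with an intensity of 899 untreated and 475 with 4OHT (-0.90). Below 0 at day 6 lay 76 of 88 members (50.5% of all genes) and above it 12 (49.1%). At day 4 there were 48 below 0 (43.2%) and 40 above (56.7%). The median of all members was -0.045 at day 4 and -0.38 at day 6, and that of all genes 0.061 and -0.0044. Lower on both days were 40 members (26.0% of all genes), higher on both days 4 (32.0%), higher at day 4 and lower at day 6 36 (24.5%), and lower at day 4 and higher at day 6 8 (17.1%). After quantile normalization 68 members were below 0 at day 6 (45.4% of all genes), 9 members in place of 20 were at least 1.5-fold lower at day 6, and 7 in place of 4 at day 4. The shares of all genes past 1.5-fold were not counted in that setting.

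On the same arrays 11 of 19 measured enterocyte markers fell by limma's test, and 16 of 19 at day 4 and 19 of 19 at day 6 were below 0. Their summed intensity was 5460 untreated and 2193 with 4OHT at day 4, and 19783 and 8649 at day 6. The part of the enterocyte markers in the values of the members was not tested. The gap between the 3' and 5' control probe sets of Actb, a sign of RNA or labelling quality, was wider with 4OHT by 0.94 on day 4 and 0.62 on day 6. The 18 probe sets of spiked hybridization controls had a 4OHT difference of -0.35 on day 4 and 0.83 on day 6, and the 27 of poly-A labelling controls one of -0.41 and 1.23. The part of these controls in the values of the members was not tested.

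Where a member had several probe sets past the level filter, these often disagreed. Of 48 such members, all probe sets gave the same direction with 4OHT in 22 at day 4 and in 31 at day 6. When all probe sets of a gene were averaged, 82 of 88 members were below 0 at day 6 (52.3% of all genes), with a median of -0.36 (-0.012 over all genes).

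Genes around the chain were read from lists of other mitochondrial functions. Of 15 measured genes of pyruvate dehydrogenase and the citric acid cycle, which feed the chain with electrons, Dld fell, none rose and 14 did not pass, the day 4 and day 6 medians being -0.19 and -0.47. Dld, the dihydrolipoamide dehydrogenase shared by several mitochondrial enzymes, had intensities of 77.1 and 28.3 at day 4 and of 258 and 168 at day 6 and fell by 0.82 ± 0.22 (SE, limma, adjusted p = 0.0497). Of 5 outer membrane genes Vdac2, a channel for metabolites, fell by 0.81 ± 0.21 (SE, limma, adjusted p = 0.0484) and 4 did not pass. Both calls lay close to the threshold and were lost after quantile normalization (adjusted p = 0.0916 for Dld and 0.123 for Vdac2). They were also lost with a pseudocount of 64 or without the level filter, where no gene passed. Further settings not listed here also ended the call of Dld, of Vdac2 or of both.

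Of 31 measured assembly and maturation factors 29 were tested, and Sdhaf1 rose while 28 did not pass and none fell. Sdhaf1 helps to insert the iron-sulfur clusters into Sdhb. Its intensity was 72.9 and 207 at day 4 and 132 and 231 at day 6, untreated and 4OHT in turn, so that both 4OHT arrays lay above both untreated ones. It rose by 1.04 ± 0.22 (SE, limma, adjusted p = 0.0142), opposite in sign to the 4 subunit genes of complex II, and with a pseudocount of 1 it did not pass (adjusted p = 0.168). Nor did it pass with a pseudocount of 64 or without the level filter, where no gene did. Over the list the median difference was 0.11 (day 4) and -0.31 (day 6). None of 14 regulators of mitochondrial genes passed. The coactivator gene Ppargc1a differed by -0.54 and -0.62 (adjusted p = 0.182) and Nrf1, which encodes the factor whose motif is given above, by 0.57 and 0.47 (adjusted p = 0.255). Cycs, one gene of the mobile carrier cytochrome c, differed by -0.52 and -0.090, and Cyc1, the cytochrome of complex III, by 0.20 and -0.60. Of 13 subunits from mitochondrial DNA only ND5, of complex I, was measured, with 20105 and 17281 at day 4 and 11122 and 17861 at day 6, and it was lower with 4OHT at day 4 (-0.22) and higher at day 6 (0.68) without passing (adjusted p = 0.758).

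The comparison of day 6 with day 4 in each arm asked how the members stood as the cultures aged. Untreated, 59 members were at least 1.5-fold higher at day 6 and 4 lower (36.9% and 18.3% of all genes), and with 4OHT 48 were higher and 5 lower (29.0% and 14.2%). Above 0 lay 74 untreated (55.8%) and 67 with 4OHT (51.8%), and below it 14 (44.1%) and 21 (48.0%). The median difference was 1.09 untreated and 0.66 with 4OHT, where that of all genes was 0.16 and 0.041. By complex the untreated and 4OHT medians were 1.78 and 1.38 for complex II, 1.28 and 0.86 for complex V, 1.07 and 0.51 for complex I, 1.05 and 0.54 for complex IV, and 0.84 and 0.54 for complex III. The order of these medians is that of the brightest probe sets. With the mean of all probe sets they were 1.14 and 0.80 for complex II, and untreated 0.92 for complex III, 0.91 for complex IV, 0.90 for complex V and 0.86 for complex I. Differences between complexes were not tested. Ndufs1 had the largest untreated difference of the members, 2.47, its intensity going from 92.8 to 587, and from 97.1 to 386 with 4OHT. Sdha went from 313 to 1492 untreated and from 251 to 967 with 4OHT. Cox7c went from 8.25 to 107 untreated and from 9.40 to 66.5 with 4OHT. Both day 4 values of Cox7c lay below the level filter of 20.9, so that it passed only through arrays of day 6. The second probe set of Cox7c reached the filter only on the untreated array of day 6, with 21.2. It differed over time by 0.53 untreated and 0.36 with 4OHT, so that the size of the Cox7c difference is uncertain.

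**Figure D3:**
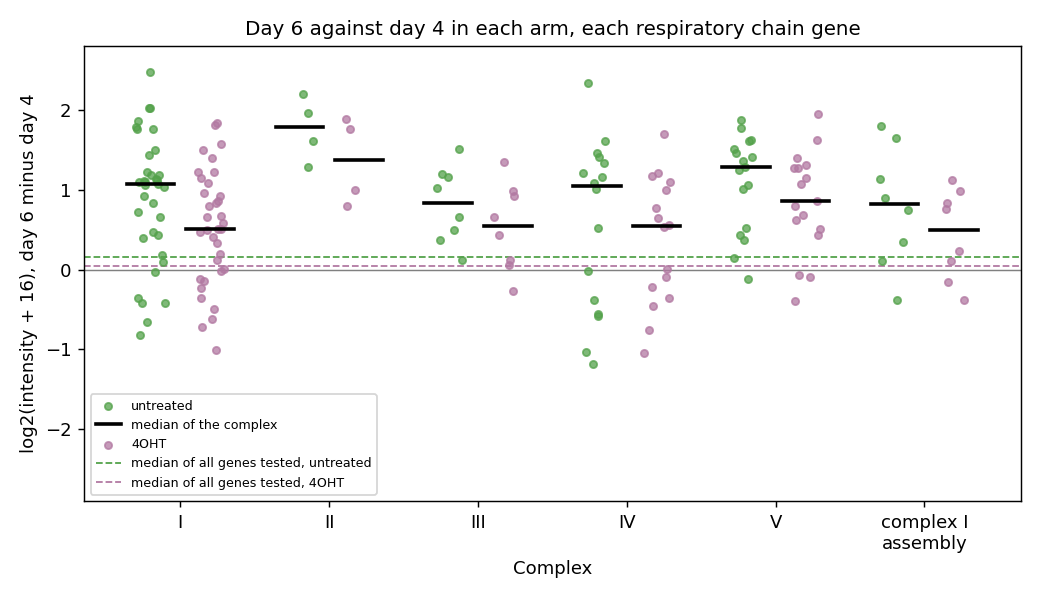
Each point is 1 of the 88 members tested, placed by complex, with the log2(intensity + 16) difference of day 6 minus day 4 in untreated organoids (green) and with 4OHT (purple); black bars are medians of the complex and dashed lines those of all genes. The medians of every complex lie above both dashed lines, and the untreated bar lies above the 4OHT bar in each.

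The 4 members at least 1.5-fold lower at day 6 in untreated organoids were Cox8c (-1.18), Cox6a2 (-1.03), Ndufa4l2 (-0.82) and Ndufs7 (-0.66), the first 3 being tissue-restricted isoforms. The second probe set of Ndufs7 went the other way, by 1.19 untreated and 0.49 with 4OHT, and that of Ndufb7 differed by 0.41 and -0.19. That of Cox8c differed by -0.20 and -0.40, and that of Cox6a2 lay below the level filter. Of the 48 members with several probe sets past the filter, all gave the same direction over time in 33 untreated and in 33 with 4OHT. With 4OHT the members at least 1.5-fold lower at day 6 were Cox6a2, Ndufa4l2, Cox8c, Ndufa2 and Ndufb7, between -1.04 and -0.62. Of the 7 tissue-restricted isoforms tested 6 were lower at day 6 in each arm. Cox7a1 was the exception with 1.09 untreated and 0.53 with 4OHT. Of the 6 that were lower, Cox4i2, Cox6b2 and Cox8b passed the level filter only through arrays of day 4. The direction of these genes over time follows in part from that filter and is no result. The summed enterocyte markers were higher at day 6 in both arms, and the 3' minus 5' gap of Actb differed there by -1.24 untreated and by -1.56 with 4OHT. Their part in the time differences was not tested. The contrasts of the arms share no array, but each shares its arrays with the 4OHT contrasts: 75 of 88 members had a lower 4OHT difference at day 6 than at day 4 (57.7% of all genes), with a median change of -0.31 (-0.082 over all genes), and 1 array per group leaves no test of that change.

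The time differences moved with the scaling and with the level filter. The arrays of day 6 covered a wider range of intensities, 6.89 and 6.73 between the 5th and 95th percentiles on the log2 scale against 5.77 and 5.90 at day 4. After quantile normalization the medians of the members were 0.46 untreated and 0.31 with 4OHT, and those of all genes -0.13 and -0.15. Among the 2205 genes with an intensity of at least 412 on 1 array, a filter chosen after seeing the data, the medians of all genes were 0.90 and 0.63, close to the 1.12 and 0.67 of the 70 members in that range. In the same bright range the 4OHT difference at day 6 was -0.43 over the members and -0.093 over all genes.

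**Figure D4:**
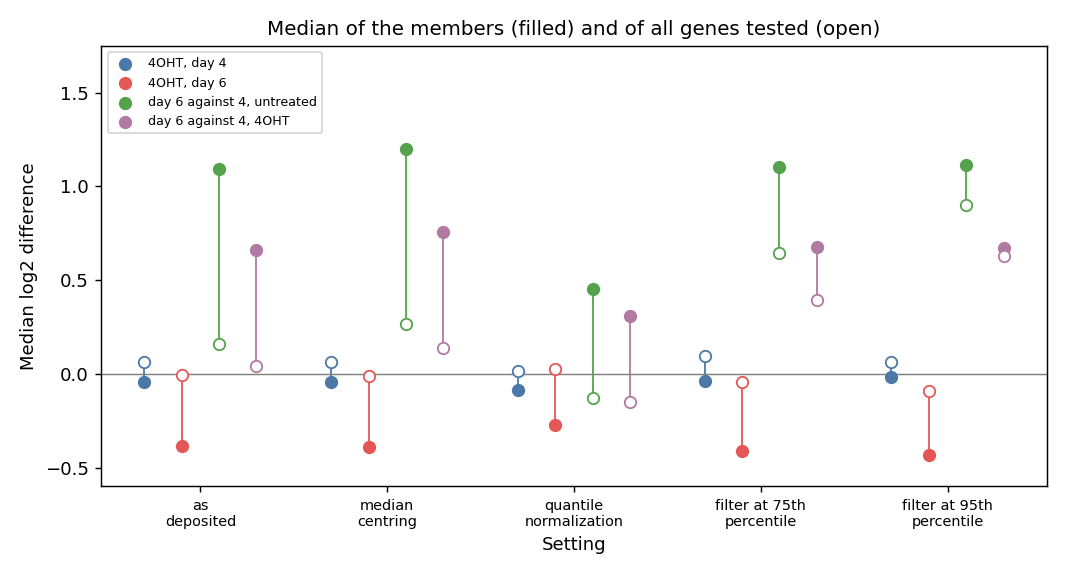
Filled points are medians of the members and open points medians of all genes tested, in log2 units, for 4OHT at day 4 (blue), 4OHT at day 6 (red) and day 6 against day 4 in untreated (green) and 4OHT-treated organoids (purple), under 5 settings. The gap between filled and open points stays at -0.30 to -0.38 for 4OHT at day 6 and shrinks to 0.22 and 0.047 for the time differences with the filter at the 95th percentile.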

How the data were processed

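Gene expression was measured with 1 Affymetrix array for each of 4 groups of organoids. The authors deposited a linear intensity for each probe set and array. Their background correction, normalization and summarisation are steps not given in the sources used here. Per the labels' protocols the RNA was labelled from the 3' end.

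Of 45101 probe sets, those that name 1 gene in the platform annotation were kept, control probe sets left out, and 18193 genes were each read from the probe set whose log2 values averaged highest over the 4 arrays. All 90 members matched a RefSeq record by gene identifier with the same symbol. The deposited intensities were moved to log2(intensity + 16). Genes whose highest value was at least the median of all values (20.9) were tested with limma (version 3.58.1, R 4.3.3), with 4OHT and day as additive terms, adjusted over 13192 genes at 0.05. The fit's prior had 15.2 degrees of freedom and an SD of 0.215, and the step was tested on simulated data. Only genes past the test are said to have risen or fallen. Contrasts of 1 array against 1 are values with no test, counted at 1.5-fold. Intensity folds have nothing added. No source says that the arrays came from separate cultures, and a p-value then rests only on the spread between arrays, pooled mostly over all genes.

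Named were the members past the test, per complex and direction the 3 of the same sign on both days that led by the smaller of their differences, listed isoforms, and genes of the other lists past the test or, failing that, the leading 2. Other members with printed values (Ndufa9, Ndufs1, Ndufs7, Ndufa2, Atp5a1, Cox7a2l, Cox7c and Ndufaf6) were picked with their values in view, as was Cyc1. The members and lists were chosen with earlier results of these data known. Alternatives were median centring, quantile normalization, pseudocounts of 1 and 64, the mean of all probe sets, no _x_at or _s_at probe sets, other level filters and thresholds, and no day term. Promoter sequences are RefSeq's (GRCm38.p6), found for 74 members. Python 3.11.15, pandas 2.3.3, numpy 2.4.6 and matplotlib 3.10.9 were used.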

Additional observations from a re-analysis of the deposited data

Results flagged for a closer look

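Ndufaf6, an assembly factor of complex I, was the only member tested whose 4OHT difference was at least 0.32 on the log2 scale in opposite directions on the days, 0.40 at day 4 (intensity 27.0 untreated, 40.5 with 4OHT) and -0.41 at day 6 (119 and 85.1). The difference between the days was not tested, with 1 array per group.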

How the results depend on the processing

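Without replicates each value is that of 1 array, and the brightest probe set decides each gene. The day term pairs the untreated and 4OHT arrays of a day, and the fit without it is the unpaired alternative. Leaving out an array would leave no residual degree of freedom. Over the named genes and the alternatives, 369 values stayed on their side of the threshold and 21 lost the call, all for Cox7a1, Dld, Vdac2 or Sdhaf1. The sign turned for 1 of 34 named members without _x_at and _s_at probe sets.

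The count of members that fell was 0 with a pseudocount of 64, without the level filter, with the filter at the 95th percentile (chosen after seeing the data) or without the day term, and 2 at an adjusted p under 0.1. No gene of all those tested passed with a pseudocount of 64 or without the level filter. With the filter at the 95th percentile, which Cox7a1 did not reach, 31 genes rose and 128 fell. Members at least 1.5-fold lower at day 4 numbered 7 after quantile normalization, 7 with a pseudocount of 1 and 2 with 64, and at day 6 9 after quantile normalization. A pseudocount of 1 gave 1 member at least 1.5-fold higher at day 4. At 2-fold 1 member was lower on each day, and at a threshold of 0.32 on the log2 scale 13 were lower and 7 higher at day 4 and 52 lower at day 6. Members higher on both days numbered 9 after quantile normalization and 1 with the mean of all probe sets. For these fold and both-day counts the shares of all genes were not counted under the changed settings. The counts are therefore given without a background and are not read as results about the members. Time medians of all members moved to 0.46 and 0.31 after quantile normalization, and the complex I median at day 4 turned to -0.010. With the 95th percentile filter only Ndufaf8 was left of the assembly factors. Its time difference with 4OHT was -0.16, as it was without that filter, so that no change of the group is shown. With the mean of all probe sets the complex II medians moved to -0.44 for 4OHT at day 6 and to 1.14 and 0.80 over time. The causes were not tested. Dim isoforms near the level filter have little signal over background.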
